A study of Mus musculus with 11 samples.

Results

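Rosiglitazone (1 µM) was compared with pioglitazone (20 µM) in mouse 3T3-L1 cells after 24 h, across all transcripts measured on an oligonucleotide array. The comparison takes every array that the labels assign to either drug, which gives 5 arrays (3 with rosiglitazone, 2 with pioglitazone) of 11 in the series, and 12422 non-control probe sets of 12488. The other 6 arrays hold cells with vehicle (0.1% DMSO, 3 arrays) or troglitazone (20 µM, 3 arrays), both also for 24 h. The array titles form 2 sets: set 1 holds replicates 1 and 2 of each group, and set 2 holds replicate 4 of every group but pioglitazone. Set 1 alone therefore gives 2 arrays against 2. 3T3-L1 is an established line of mouse fibroblasts, widely used because hormones can turn it into adipocytes. The labels do not say whether these cells had been differentiated, nor whether replicates came from separate cultures, so p-values measure only the spread between these samples. The doses differ 20-fold, so drug and dose cannot be told apart in anything that follows.

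Both compounds are thiazolidinediones, drugs that raise insulin sensitivity. They bind the nuclear receptor PPARγ, which pairs with a retinoid X receptor on DNA and switches on genes of fatty acid uptake, lipid droplets and fatty acid oxidation in adipocytes. Each carries a pyridine ring at one end of the molecule. In pioglitazone that ring bears an ethyl group and joins the rest of the molecule through carbon, and in rosiglitazone it joins through a methylated nitrogen. The question the design allows is where the transcript levels of cells given one of these relatives differ from those of cells given the other, and how closely they match.

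The signals of adipocyte markers were bright in every array. Of 9 such genes, 7 were on the array (Adipoq, Fabp4, Cidec, Lpl, Slc2a4, Retn and Lep) and all lay above the floor of measurement on each array. Their summed signal ranged from 86390 to 116100 with rosiglitazone, 86510 to 103200 with pioglitazone and 82650 to 102800 with vehicle. The summed signal of 6 preadipocyte or fibroblast genes (Dlk1, Pdgfra, Thy1, Col1a1, Col3a1 and Fn1) ranged from 5138 to 5541 with rosiglitazone, 4054 to 5224 with pioglitazone and 8177 to 9607 with vehicle. The sum was lower in both drug groups than in any vehicle array, and the ranges of the drugs overlapped. In bulk samples fewer cells of a type and less RNA per cell cannot be told apart. Of the markers of other cell types, 3 of 4 for epithelium, 2 of 4 for skeletal muscle, 2 of 7 for macrophages, 1 of 4 for smooth muscle, 1 of 3 for bone and cartilage and none of 4 for endothelium lay above the floor on all arrays. The brightest of these were Csf1r of macrophages, Myog of skeletal muscle and Cdh1 of epithelium (mean signals 1553, 803.2 and 645.2), and for each of these types the summed signal ranges of the 3 groups overlapped. The floor is a signal of 73.7, the 25th percentile of all values, to which lower values were raised. A pair of arrays stood apart: replicate 2 of rosiglitazone correlated least with the other arrays (median 0.833, against 0.874 to 0.896 for the rest), and replicate 2 of pioglitazone had the highest beta-actin ratio of its set (signal of the 3' over the 5' control probe set), 4.86 against 1.79 to 2.27 on the other arrays of set 1. This ratio is a sign of RNA quality. Several counts below are also given without these arrays, and some of the counts given with no such value moved as well.

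Across 11739 tested probe sets, none differed between the drugs at an adjusted p under 0.05 in limma (0 called, 0% of those tested). The lowest adjusted p was 0.524. At an unadjusted p under 0.05 there were 812 probe sets (6.92%), 423 higher with rosiglitazone and 389 higher with pioglitazone. The count was also 0 in set 1 alone and without either or both of the arrays that stood apart. It was 3 without the filter on dim probe sets (Enpep, Maoa and 1 probe set with no gene name), all lower with rosiglitazone. They lay above the floor on 2, 6 and 2 of the 11 arrays. The filter itself kept all 3, and none passed in the main fit. For Enpep and the unnamed probe set, the 2 arrays above the floor were those of pioglitazone. These 3 are named because they make up that count.

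A missed threshold does not show that the drugs act alike, so the intervals of the differences were read as well. The difference is given as rosiglitazone minus pioglitazone on the log2 scale, where 1 is a 2-fold difference. Its median size over the tested probe sets was 0.351, and the 95% interval reached a median of 1.044 to either side. The interval lay wholly inside 2-fold in either direction for 3153 probe sets (26.9%). The point estimate lay beyond 2-fold for 1163 (9.91%). Without replicate 2 of pioglitazone the number inside 2-fold was 2081.

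What the arrays could resolve depended on brightness. When the probe sets were split into 4 equal classes of brightness, in the brightest class (median signal 1130) the interval reached 0.59 to either side, and 70.7% of probe sets lay inside 2-fold. In the next class (median signal 320) the reach was 1.26 and 4.97% lay inside, and in the one after (median signal 140) the reach was 1.45 and 0.102% lay inside. The dimmest class (median signal 89.5) had 31.7% inside, but most of its values lie at or near the floor, which shortens differences. Likeness between the drugs can thus be read for bright transcripts, and for most dim ones neither likeness nor a 2-fold difference could be shown.

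**Figure D1:**
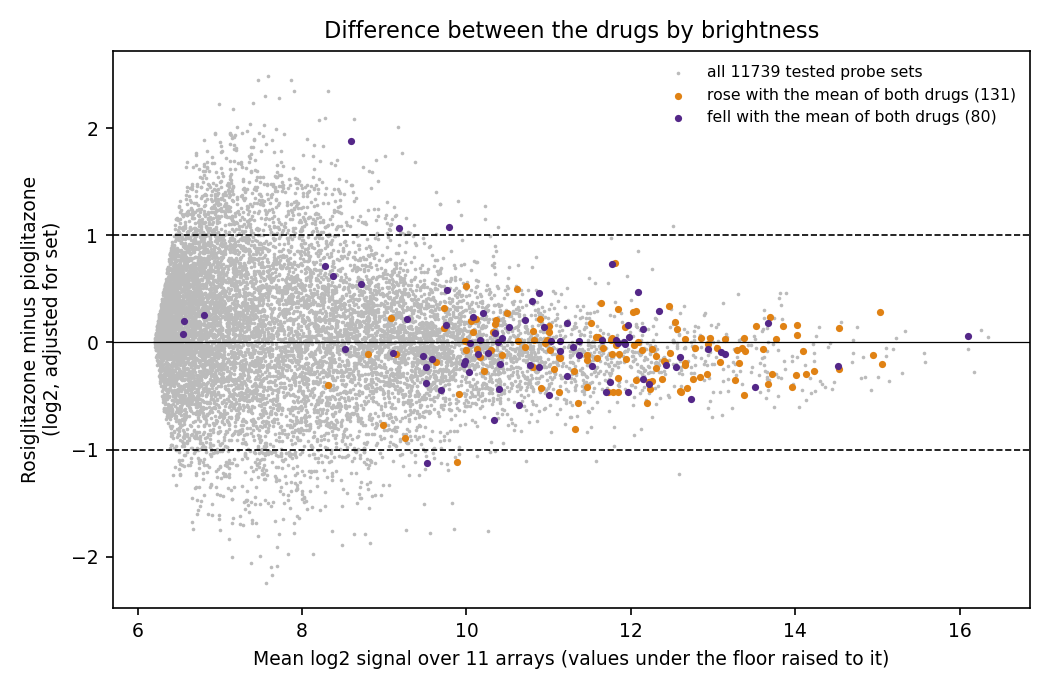
Difference between the drugs (rosiglitazone minus pioglitazone, log2, vertical axis) against the mean log2 signal over 11 arrays (horizontal axis) for each of 11739 tested probe sets (grey), with the 131 that rose and the 80 that fell with the mean of both drugs in colour. Dashed lines mark a 2-fold difference. From the dimmest to the brightest class the median size of the difference was 0.33, 0.51, 0.42 and 0.22. Of the 211 coloured points, 5 lie beyond the lines.

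The equally weighted mean of rosiglitazone and pioglitazone was tested against vehicle, a contrast that either drug alone can carry. By limma, 131 probe sets rose (1.12% of those tested) and 80 fell (0.681%), for 111 and 66 genes. Rosiglitazone alone against vehicle gave 92 rises (0.784%) and 67 falls (0.571%). Pioglitazone alone gave 74 rises (0.63%) and 32 falls (0.273%). These comparisons share the vehicle arrays, and pioglitazone has 1 array fewer, so their counts are set side by side only. The 211 probe sets moved by the mean became 89, 96 and 111 without vehicle replicates 1, 2 and 4, and 116 without rosiglitazone replicate 4. In set 1 alone they were 42, and without both arrays that stood apart 165. A model without the term for the set gave 57, and a model without the intensity trend gave 7. Other scalings moved the split: quantile normalisation gave 101 rises and 88 falls, and median centring 150 and 51. For pioglitazone alone they gave 42 and 43, and 123 and 18. For rosiglitazone the 159 became 74, 74 and 76 without vehicle replicates 1, 4 and 2, and 82, 77 and 90 without rosiglitazone replicates 1, 2 and 4. For pioglitazone the 106 became 43, 49 and 59 without vehicle replicates 1, 2 and 4 and 49 without pioglitazone replicate 1. Leaving out replicate 4 of rosiglitazone gave 68, and leaving out that of troglitazone 65.

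Genes are ranked by their brightest tested probe set. Dimmer probe sets of 4931406C07Rik (2.21) and Ufm1 (1.79) therefore lie outside the 10 largest rises named here, as do 1 probe set with no gene name (2.18) and 1 shared by several genes (1.66). Among the falls, 2 probe sets with no gene name (-2.37 and -1.69) lie outside.

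The largest rise of a gene was that of Chchd10, a protein of the space between the mitochondrial membranes. Its signal was 560.1, 364 and 868 in vehicle replicates 1, 2 and 4, then 3082, 2728 and 3756 with rosiglitazone and 2914 and 3173 with pioglitazone. All 5 treated arrays lay above every vehicle array, and the pioglitazone values lay among those of rosiglitazone. The mean of the drugs was 2.56 ± 0.17 (log2, SE) above vehicle (adjusted p = 8.09e-07, limma), and the drugs differed by -0.14 (95% interval -0.61 to 0.33).

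Anxa2, a calcium-dependent phospholipid-binding protein, had the smallest difference between the drugs among the 10 largest rises. Its signals were 3518, 3202 and 6151 with vehicle, 13440.3, 14919.9 and 21268 with rosiglitazone and 14681 and 12332 with pioglitazone. Every treated array lay above every vehicle array, and the drugs overlapped. The mean rose by 1.96 ± 0.11 (adjusted p = 2.22e-07, limma), with a difference of 0.05 between the drugs (-0.26 to 0.35).

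Acaa1b, a peroxisomal thiolase that ends a round of fatty acid oxidation, rose by 2.12 ± 0.13 (adjusted p = 2.22e-07, limma). Its signals were 6905, 5861 and 10944 with rosiglitazone and 8742 and 7243 with pioglitazone, against 1519.6, 1631 and 3087 with vehicle. The drugs differed by -0.34 (-0.68 to 0). A dimmer probe set of this gene rose by 0.90 and had a difference of the other sign, 0.53, so the gene's probe sets disagree on which drug gave the higher signal.

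Pdk4, a kinase that shuts pyruvate dehydrogenase, rose by 1.68 (adjusted p = 0.00162, limma), and Cbr3, a carbonyl reductase, by 1.39 (adjusted p = 5.54e-05). The 3 rosiglitazone arrays spread widely for Pdk4, at 2454, 1263 and 3554, and the pioglitazone arrays at 2129 and 3363 lay within them. For Cbr3 the pioglitazone signals were 5034 and 4219, and those of rosiglitazone 2933, 3427 and 5805. The drugs differed by -0.43 (-1.10 to 0.24) for Pdk4 and by -0.46 (-0.83 to -0.09) for Cbr3, so a difference of 2-fold lay outside the interval for Cbr3 and inside it for Pdk4. Among the other large rises, Sapcd1 rose by 1.49 and Sac3d1 by 1.46. The call for Sac3d1 did not survive the loss of replicate 1 or 4 of vehicle, replicate 1 of pioglitazone or replicate 4 of rosiglitazone, and that of Pdc (1.52) was lost without any 1 of the 11 arrays. Dimmer probe sets lay at 0.85 and 0.01 for Sac3d1 and at 0.50 for Pdc, and none of these passed.

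Gsn, which encodes the actin-severing protein gelsolin, had the smallest difference between the drugs among the 10 largest falls. The signals were 3297, 2867 and 4319 with vehicle, 861, 929 and 983 with rosiglitazone, and 804 and 946 with pioglitazone. The treated arrays all lay under every vehicle array, and the drugs overlapped. The mean fell by 1.90 on the log2 scale (adjusted p = 1.94e-05, limma), by 1.90 with either drug, and the drugs differed by 0.01 (-0.45 to 0.46).

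Sparcl1, a matricellular protein, fell by 1.91, Cp, the plasma copper carrier ceruloplasmin, by 1.86, and Pnp, an enzyme of purine salvage, by 1.84 (adjusted p = 0.00137, 0.000587 and 0.00155, limma). The rosiglitazone and pioglitazone arrays overlapped for all 3, for Cp only through rosiglitazone replicate 4 of set 2. Their differences were -0.13 (-0.87 to 0.61), -0.27 (-0.93 to 0.38) and -0.44 (-1.17 to 0.29). Itih4, a plasma protease inhibitor chain, fell by 1.65 (adjusted p = 0.000297), with signals of 1003, 600.2 and 1250 for rosiglitazone and 1136 and 1286 for pioglitazone. It fell by 1.94 with rosiglitazone and by 1.36 with pioglitazone, a difference of -0.58 (-1.12 to -0.04) that did not pass (adjusted p = 0.701). Cyp1b1, an enzyme of xenobiotic and steroid oxidation, fell by 2.37 with a difference of -0.06 (-1.22 to 1.11), and its call was lost without vehicle replicate 1 or 2. Dmtn, an actin-bundling protein, fell by 2.34, and its call was lost without any array but troglitazone replicate 2.

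Pparg, the receptor that both drugs bind, was itself among the falls. Its signals were 1931, 1729 and 2886 with vehicle, 698, 665 and 1054 with rosiglitazone and 462 and 511 with pioglitazone. The drug groups did not overlap each other, and both lay under all vehicle arrays. Pparg fell by 1.43 with rosiglitazone (adjusted p = 0.00204, limma) and by 1.93 with pioglitazone (adjusted p = 0.000901). The difference was 0.49 ± 0.24 (-0.03 to 1.01) and did not pass (adjusted p = 0.723, limma).

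**Figure D2:**
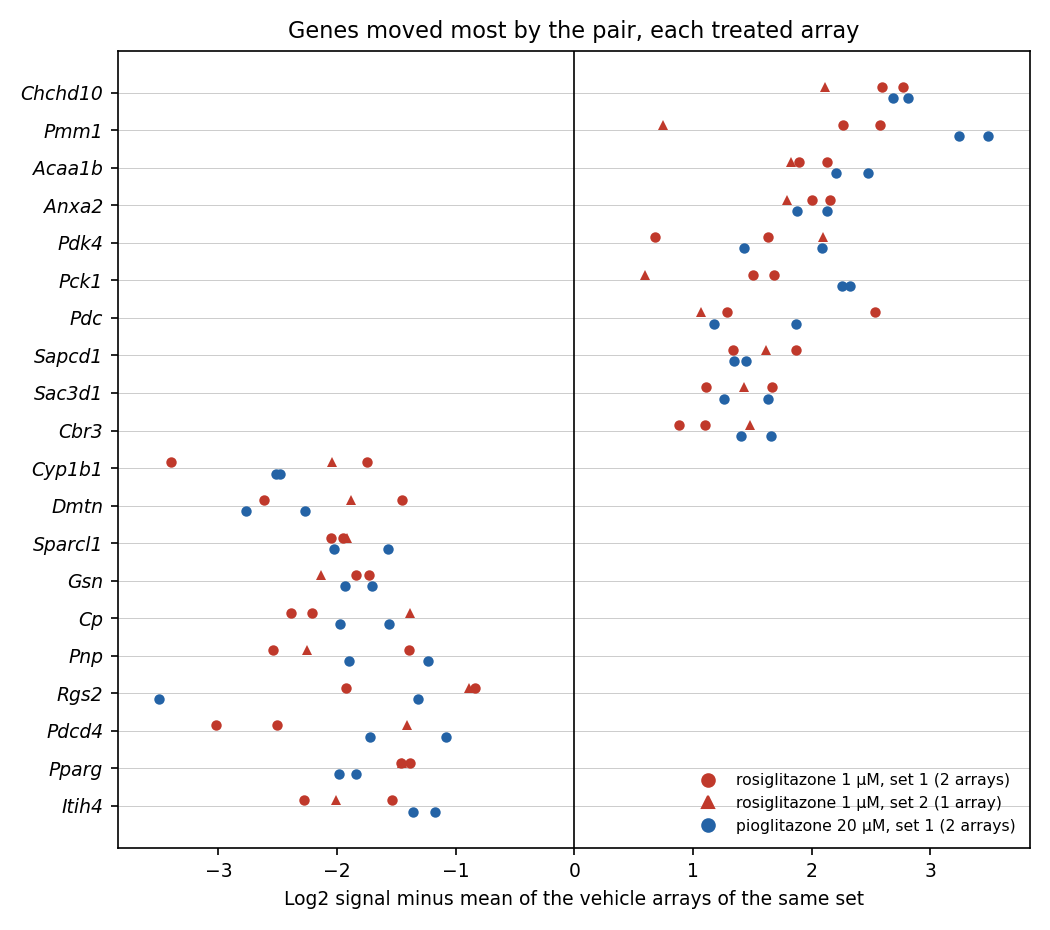
Log2 signal of each treated array minus the mean of the vehicle arrays of its set (horizontal axis) for the 10 genes with the largest rises and the 10 with the largest falls with the mean of both drugs, each by its brightest probe set (vertical axis). Red circles and triangles are rosiglitazone arrays of set 1 and set 2, and blue circles are pioglitazone arrays; red and blue points lie on the same side of 0 for every gene, as the choice of genes required, and overlap for Chchd10, Anxa2 and Gsn but not for Pck1, Pmm1 and Pparg.

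Promoter sequences are shown for 3 of these 20 genes because PPARγ with its partner binds repeats of the motif AGGTCA. Of the 20, 17 had an entry in the RefSeq promoter table (GRCm38.p6), and the 250 bases before each start were searched on both strands. The motif was present before 1 start of Chchd10, before 1 of Itih4 and before 2 of 3 starts of Pparg. It is in capitals below, and appears as TGACCT where it lies on the other strand.
Chchd10, chr10:75932880-75933129, plus strand: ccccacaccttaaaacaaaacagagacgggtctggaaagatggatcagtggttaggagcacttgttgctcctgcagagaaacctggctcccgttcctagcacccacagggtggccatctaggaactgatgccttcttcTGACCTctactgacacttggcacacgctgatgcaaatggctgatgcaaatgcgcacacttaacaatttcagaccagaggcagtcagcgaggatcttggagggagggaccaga
Pparg, chr6:115360894-115361143, plus strand: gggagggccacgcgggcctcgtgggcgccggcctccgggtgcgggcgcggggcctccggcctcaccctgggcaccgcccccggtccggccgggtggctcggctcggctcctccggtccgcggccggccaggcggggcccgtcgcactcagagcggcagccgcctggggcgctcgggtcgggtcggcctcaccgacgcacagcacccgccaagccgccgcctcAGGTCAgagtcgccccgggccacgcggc
Pparg, chr6:115362099-115362348, plus strand: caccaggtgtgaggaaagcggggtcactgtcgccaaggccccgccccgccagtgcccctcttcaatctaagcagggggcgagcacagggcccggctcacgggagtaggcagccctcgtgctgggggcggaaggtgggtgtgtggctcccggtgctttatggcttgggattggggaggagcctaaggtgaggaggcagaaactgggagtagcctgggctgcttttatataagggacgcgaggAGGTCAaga
Itih4, chr14:30886226-30886475, plus strand: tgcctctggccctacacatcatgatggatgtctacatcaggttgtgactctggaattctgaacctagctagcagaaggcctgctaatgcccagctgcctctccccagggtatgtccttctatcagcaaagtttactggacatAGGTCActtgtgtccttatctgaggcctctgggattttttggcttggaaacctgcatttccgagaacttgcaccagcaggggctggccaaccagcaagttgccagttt

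The motif lies 112 to 107 bases before the start of Chchd10, 28 to 23 and 9 to 4 bases before those of Pparg, and 108 to 103 bases before that of Itih4. The same letters occur in 14.0% of all 32851 promoters of the table and in 11.9% of the 8136 promoters of tested genes. Genes that rose with the mean of the drugs had them in 16 of 118 promoters (13.6%) and genes that fell in 8 of 74 (10.8%), so both shares lay near that of all tested genes. The repeat AGGNCANAGGNCA occurred in 0.32% of the promoters of tested genes and in none of those 118 and 74. A match is a description of the letters, and windows further from the start were not searched.

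The 211 probe sets called with the mean of the drugs are termed the shared response, though not all of them passed with each drug alone. Of the 211, 198 lay in the brightest class. They were called with the same standard errors that set the intervals of the difference, so the choice favours narrow intervals, and the shares that follow are a description. The interval of the difference lay inside 2-fold for 184 of the 211 (87.2%). The median size of the difference was 0.19 and its interval reached a median of 0.43 to either side. Among the 198 in the brightest class 90.4% lay inside 2-fold, and among the 2737 of that class that did not pass 69.3% did. None of the 211 passed between the drugs (0 called, as among all probe sets). An unadjusted p under 0.05 was reached by 33 of the 211, a larger share than the 6.92% (812) of all tested probe sets. In set 1 alone, 35 of 42 (83.3%) lay inside 2-fold. Without replicate 2 of pioglitazone the share was 69.8%, and without both arrays that stood apart 61.8%, where 1 pioglitazone array remains.

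The sizes of the responses were also close. Among the 131 rises the median was 0.79 with rosiglitazone and 0.86 with pioglitazone, and among the 80 falls it was -1.04 with each. Pioglitazone lay further from vehicle in 120 of the 211 (56.9%), in 83 of the 131 rises and in 37 of the 80 falls. The pioglitazone mean rests on 2 arrays and that of rosiglitazone on 3, and both helped to choose these probe sets. The mean with fewer arrays is noisier, so the choice itself can favour probe sets in which pioglitazone lay further. In set 1, with 2 arrays each, pioglitazone lay further in 26 of 42 (61.9%). The share was 70.6% with median centring, 50.9% without the term for the set and 73.3% without both arrays that stood apart.

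Pck1, the cytosolic phosphoenolpyruvate carboxykinase that supplies glycerol for triglycerides in adipocytes, was among the rises in which the drugs did not overlap. Its signals were 1718, 1016 and 1989 with vehicle, 3746, 4247 and 3013 with rosiglitazone and 6331 and 6603 with pioglitazone. Each pioglitazone array lay above every rosiglitazone array, and each of those above every vehicle array. Pck1 rose by 1.26 with rosiglitazone (adjusted p = 0.0102, limma) and by 2.07 with pioglitazone (adjusted p = 0.000901). The difference was -0.81 ± 0.26 (-1.37 to -0.24), 1.75-fold in signal, and -0.70 in set 1 alone. It did not pass over all probe sets (adjusted p = 0.589, limma).

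Pmm1, a phosphomannomutase that prepares mannose for glycosylation, had the same order. The signals were 149, 203 and 749.5 with vehicle, 835, 1040.1 and 1261 with rosiglitazone and 1955 and 1646.5 with pioglitazone. The drugs did not overlap, and vehicle replicate 4 of set 2 was far above the other vehicle arrays. Pmm1 rose by 1.86 and 2.98 with rosiglitazone and pioglitazone (adjusted p = 0.00848 and 0.000901, limma), and the difference was -1.12 (-1.92 to -0.31, adjusted p = 0.618).

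Of the 211 probe sets, 5 differed between the drugs by more than 2-fold at the point estimate: Pmm1, Cebpd, Pdcd4, Rgs2 and Tpp2. Cebpd, a transcription factor of early adipogenesis, had signals of 653, 620.0 and 724 with vehicle, 387, 474 and 462 with rosiglitazone and 26 and 176 with pioglitazone. The 3 groups did not overlap, and the lower pioglitazone value is under the floor. The difference was 1.88 (0.91 to 2.84), between 1.25 and 2.51 when 1 array was left out, and did not pass (adjusted p = 0.589). Cebpd fell by 2.48 with pioglitazone (adjusted p = 0.0138, limma), while the value for rosiglitazone was -0.60 (adjusted p = 0.645). Its fall with the mean of the drugs (-1.54) was lost in 10 of the 11 fits that left out 1 array, all but the one without pioglitazone replicate 2.

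Pdcd4, a repressor of translation initiation, differed the other way. Its signals were 348, 244 and 724 with rosiglitazone, 599 and 935 with pioglitazone, and 2149, 1824 and 1920.2 with vehicle. The drugs overlapped only through rosiglitazone replicate 4 of set 2. The difference was -1.12 (-1.88 to -0.36, adjusted p = 0.589). Rgs2, a brake on G protein signalling, had 526, 1116 and 1109 with rosiglitazone and 176 and 797 with pioglitazone, a difference of 1.08 (0 to 2.16, adjusted p = 0.721). Its fall with the mean of the drugs was lost in 9 of the 11 fits that left out 1 array (all but those without pioglitazone replicate 2 or troglitazone replicate 2), and that of Pdcd4 without vehicle replicate 1. Tpp2, a peptidase, had a difference of 1.06 (0.17 to 1.96), with signals of 559, 861 and 605.5 against 185.5 and 488. Its vehicle signals were 897, 1250 and 1493.5. Tpp2 fell by 1.90 with pioglitazone (adjusted p = 0.0465, limma), while the value for rosiglitazone was -0.84 (adjusted p = 0.408).

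A further 3 genes of the shared response are named after their values were seen, for a small p between the drugs. Anxa8, another annexin, had 3668, 2915 and 5125.5 with rosiglitazone, 2142 and 2139 with pioglitazone and 6224, 8896 and 6905 with vehicle, with no overlap between the drugs (difference 0.73, 0.28 to 1.17). Fam162a, a mitochondrial protein, had 4235, 4300.5 and 5841 with rosiglitazone and 2127 and 3443 with pioglitazone (0.74, 0.28 to 1.20). Wdr92 had 4939, 3787 and 5489.5 with rosiglitazone and 6709.6 and 6712 with pioglitazone (-0.57, -0.92 to -0.22). Vehicle signals were 2501.5, 2102 and 1996 for Fam162a and 3590, 3812 and 3456 for Wdr92. Fam162a did not pass with pioglitazone alone (0.37, adjusted p = 0.625, limma), nor Wdr92 with rosiglitazone alone (0.37, adjusted p = 0.327). None of the 3 passed between the drugs (adjusted p = 0.589 for each, limma).

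**Figure D3:**
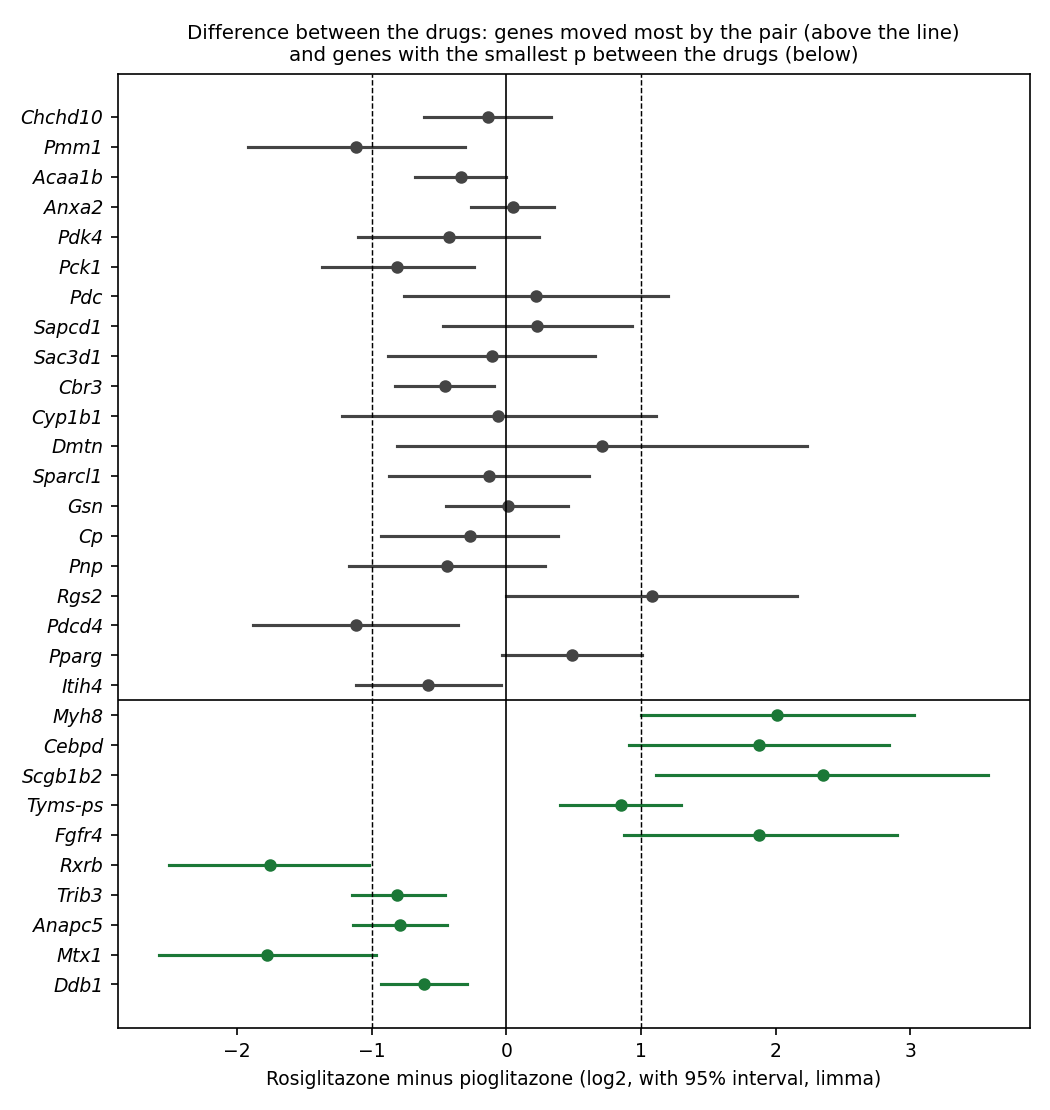
Difference between the drugs (rosiglitazone minus pioglitazone, log2, horizontal axis) with its 95% interval from limma for the genes moved most by the pair (grey, above the line) and the genes with the smallest unadjusted p between the drugs (green, below the line); dashed lines mark 2-fold. Intervals of Anxa2 (-0.26 to 0.35) and Gsn (-0.45 to 0.46) lie well inside the dashed lines, and that of Rxrb (-2.51 to -1.02) lies outside them, though none passed after adjustment.

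The 5 genes with the smallest p in each direction between the drugs are given as values that did not pass. Rxrb encodes a retinoid X receptor, a class of partner of PPARγ. Its signals were 701, 635 and 784 with rosiglitazone, 2826 and 2001 with pioglitazone, 1371, 822 and 1155 with vehicle and 1046, 2584 and 1348 with troglitazone. The rosiglitazone arrays lay under and the pioglitazone arrays above all vehicle arrays. The difference was -1.76 ± 0.35 (-2.51 to -1.02), -1.83 in set 1 alone and -2.01 to -1.51 when 1 array was left out (adjusted p = 0.524, limma). Neither drug passed against vehicle (-0.63 and 1.13, adjusted p = 0.487 and 0.198).

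Trib3 is a pseudokinase induced in the integrated stress response and varied least of these 10 when 1 array was left out. Its signals were 2458, 2285 and 3306 with rosiglitazone, 4089 and 4169 with pioglitazone, 5206, 3702 and 6268 with vehicle and 6208, 6423 and 8880.0 with troglitazone. The rosiglitazone arrays were the lowest of all, with no overlap with pioglitazone. Trib3 fell by 0.90 with rosiglitazone (adjusted p = 0.0034, limma), while pioglitazone lay at -0.09 (adjusted p = 0.933). The difference was -0.81 ± 0.16 (-1.15 to -0.46), and -0.84 to -0.78 when 1 array was left out (adjusted p = 0.524, limma).

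Anapc5, a subunit of the anaphase-promoting complex, had a difference of -0.79 (-1.14 to -0.44) and signals of 1773, 1822 and 3161 against 3354 and 3164. Mtx1, a protein of mitochondrial import, had -1.78 (-2.58 to -0.97) and signals of 529, 223 and 674 against 1432 and 1141. The dimmer probe set of Mtx1 gave -1.97. Ddb1, a subunit of a ubiquitin ligase that recognises damaged DNA, had -0.61 (-0.93 to -0.29), but the gene's other probe sets gave -0.32 and 0.58. Its signals were 7779, 7247 and 11429.5 against 13587 and 10142.5. They overlapped only through rosiglitazone replicate 4 of set 2, a set with no pioglitazone array.

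In the other direction, Fgfr4, a fibroblast growth factor receptor, had signals of 338, 217 and 222 with rosiglitazone, 57.0 and 34.4 with pioglitazone and 47.1, 87.1 and 37.6 with vehicle. Scgb1b2, a secretoglobin, had 412, 289 and 348 with rosiglitazone against 64.5 and 62.9 with pioglitazone. For both genes each pioglitazone value lies under the floor, so their differences (1.88 and 2.35) were taken against the floor and their size is not measured on the pioglitazone side. Myh8, a myosin heavy chain of developing muscle, had 2.01 (1.00 to 3.03). Its signals were 1286.5, 1160 and 327 against 151 and 547, and overlapped only through rosiglitazone replicate 4 of set 2. Tyms-ps had 0.85 (0.40 to 1.30), while its dimmer probe set gave -0.47, and as a pseudogene its signal may hold that of Tyms. Ero1a, an oxidase of the endoplasmic reticulum, ranked among these by a dimmer probe set (1.08) but not by its brightest (0.46). It is named for that gap in rank, and both probe sets gave the same sign. All adjusted p were 0.524 or above (limma).

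The shared response was then read by function. The lists come from textbook knowledge. A gene is taken by its brightest probe set, and a list is described by how many of its members passed with the mean of the drugs (limma) beside its medians. The 3 passing members of a list with the smallest p are named by rule, and further members named below were chosen after their values were seen. These calls depended on the model: of 75 list members that passed, 27 did without the set term and 2 without the intensity trend. In set 1 alone 22 did. Over all 7962 tested genes, 108 rose and 64 fell, and the median difference between the drugs was 0.04 (4267 higher and 3695 lower with rosiglitazone). That median was -0.01 with quantile normalisation and -0.11 with median centring, which thus moved the median of all genes by over 0.1 towards pioglitazone.

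Of 18 PPARγ target and lipid droplet genes, 10 rose and none fell, with medians of 0.91 for rosiglitazone and 1.00 for pioglitazone. Between 7 and 10 rose when 1 array was left out, and 8 without both arrays that stood apart. Beside Pck1, Pdk4 and Acaa1b they were Cidec and Plin2, which coat lipid droplets (1.29 and 1.14), Angptl4, an inhibitor of lipoprotein lipase (1.20), Gpd1, which makes glycerol phosphate (1.03), Retsat (1.32), Cidea (0.84) and Fabp5 (0.75). Another bright probe set of Angptl4 rose by 1.05 (adjusted p = 0.00019, limma). Dimmer ones lay at 0.43 and -0.82, and neither passed. The signals of Cidec were 24697, 20068 and 27001 with rosiglitazone and 27673 and 25621 with pioglitazone, and those of Plin2 17606, 18033 and 15083 against 25005 and 20995. For Plin2 the drugs did not overlap. For Cidec they overlapped only through rosiglitazone replicate 4 of set 2, where the vehicle signal was also higher (13351 against 9478 and 9483 in set 1). Of the 18 genes, 14 were higher with pioglitazone, with a median difference of -0.28 and none passing between the drugs. The median was -0.13 with quantile normalisation, -0.46 with median centring and -0.15 without rosiglitazone replicate 2. Without the set term it was -0.07, with 11 of 18 higher with pioglitazone.

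Fatty acid oxidation in mitochondria had 5 rises among 17 genes: Hadhb (0.94), Acaa2 (0.91), Cpt2 (0.73), the carnitine carrier Slc25a20 (1.08) and Etfb (0.70). A dimmer probe set of Cpt2 lay at -0.54 and did not pass. There were 3 without vehicle replicate 1 or 4, rosiglitazone replicate 4 or both arrays that stood apart. The medians were 0.52 for rosiglitazone and 0.81 for pioglitazone, and the difference had a median of -0.06 (0.08 with quantile normalisation). Cpt1a, the gate of fatty acid entry into mitochondria, had signals of 393, 610.3 and 659 with rosiglitazone and 1027 and 721 with pioglitazone, a difference of -0.82 (-1.56 to -0.07) that did not pass (adjusted p = 0.691). Of 21 peroxisomal genes 5 rose, among them Acaa1a (0.82), Scp2 (0.81), Hsd17b4 (0.74) and Pex14 (0.57). There were 3 without vehicle replicate 1 or 4 or rosiglitazone replicate 4, and 2 without vehicle replicate 2.

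Oxidative phosphorylation gave the largest count, with 17 of 63 genes up and none down. There were 11 without vehicle replicate 4 or rosiglitazone replicate 4, 10 without vehicle replicate 2 and 9 without vehicle replicate 1. Ndufa5 of complex I had signals of 11853, 9633 and 19841 with rosiglitazone, 16229 and 13894 with pioglitazone and 5693, 4798 and 10205 with vehicle, and it rose by 1.25 (adjusted p = 5.54e-05, limma). Within set 1 both pioglitazone arrays lay above both rosiglitazone arrays, and the difference was -0.49 (-0.82 to -0.16, adjusted p = 0.589). Atp5o of the ATP synthase rose by 1.08 and Uqcrb of complex III by 0.91, with differences of -0.19 and 0.03. The list medians were 0.41 and 0.45, and 49 of the 63 differences had intervals inside 2-fold. The median difference was -0.05, and its sign depended on the scaling: 0.06 with quantile normalisation and -0.23 with median centring. Of 24 citric acid cycle genes 4 rose (Ogdh 0.90, Suclg1 0.66, Fh1 0.52 and Mdh2 0.51), and 1 did without any of vehicle replicates 1, 2 and 4 or rosiglitazone replicate 4.

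Among 18 genes that build fatty acids and triglycerides there were 4 falls and 1 rise, that of Gpd1. Fasn, the fatty acid synthase, fell by 1.14, from 13607, 15582 and 18128 with vehicle to 6024, 6443 and 8719 with rosiglitazone and 5601 and 7575 with pioglitazone. The drugs overlapped and differed by -0.06 (-0.41 to 0.29). Thrsp, a lipogenic regulator, fell by 1.32, Srebf1, the transcription factor of lipogenic genes, by 1.09, and Elovl5, an elongase, by 1.02, with differences of -0.01, -0.01 and 0.46. The falls numbered 3 or 4 when 1 array was left out, and the rise of Gpd1 was lost without vehicle replicate 1.

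Several secreted proteins fell with the mean of the drugs. Hp (haptoglobin) fell by 1.63, Orm1 by 1.33, Retn (resistin) by 0.86 and Agt (angiotensinogen) by 0.63. The differences were 0.18, -0.23, 0.05 and -0.23. Retn was at 3540.4, 3466 and 5744 with rosiglitazone and 2819 and 4593 with pioglitazone, against 6670.0, 7908 and 7587 with vehicle. All treated arrays lay under all vehicle arrays, and the drugs overlapped. Of 13 adipokines 3 fell and 1 rose; 1 fell without vehicle replicate 1 or 2. Of 28 inflammatory genes 4 fell, and 3 or 4 when 1 array was left out. Of 43 extracellular matrix genes 5 fell (Sparcl1, Bgn 1.08, Dcn 1.08, Fn1 1.01 and Sparc 0.90 on the log2 scale) and none rose. There were 3 without vehicle replicate 2 or 4 and 2 without vehicle replicate 1. A dimmer probe set of Bgn lay at -0.26 and did not pass. The medians for matrix genes were -0.30 and -0.36. These falls stand beside the lower summed signal of preadipocyte genes in both drug groups given above, in which Fn1 is counted as well, and the part of cell type in them was not tested. In the longer list of 21 preadipocyte genes the median was -0.34 with the mean of the drugs. Only 1 of them fell, Thy1 (-1.61), and its call was lost in 10 of the 11 fits that left out 1 array.

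Of 16 glycolysis genes 15 were higher with rosiglitazone, with a median difference of 0.20 and medians against vehicle of 0.56 and 0.31. The lean was not there with median centring, where 8 were higher and 8 lower and the median was 0.03. At an unadjusted p under 0.05, 3 were higher with rosiglitazone (Pfkm 0.66, Pgam1 0.46 and Pkm 0.35), against 275 of all 7962 tested genes. The intervals of 13 of the 16 lay inside 2-fold, and none passed. With the mean of the drugs 5 rose: Slc2a1, a glucose transporter (1.24), Tpi1 (0.68), Hk2 (0.65), Ldha (0.58) and Pfkl (0.51). Only Tpi1 kept its call whichever array was left out, and the count was 1 without vehicle replicate 2 or 4 or rosiglitazone replicate 1 or 4. It was 2 without vehicle replicate 1, rosiglitazone replicate 2 or troglitazone replicate 4, and 3 without pioglitazone replicate 1 or troglitazone replicate 1 or 2. Bone and cartilage markers leaned the same way (8 of 8, median 0.59), but these are dim genes with no unadjusted p under 0.05.

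Ribosomal protein and proteasome genes leaned to pioglitazone, and neither list had a member that passed against vehicle or between the drugs. Of 23 ribosomal protein genes 20 were higher with pioglitazone (median difference -0.28). An unadjusted p under 0.05 was reached by 7 of these, against 281 of all 7962 tested genes in that direction. Rps19 had the largest of these 7 differences, -0.70. With the beta-actin ratio as a covariate 17 were higher with pioglitazone, and without pioglitazone replicate 2, the array with the high ratio, 15 were (medians -0.21 and -0.24). Of 36 proteasome genes 29 were higher with pioglitazone (median -0.16). Without pioglitazone replicate 2 that became 18 of 36 (median 0), and without both arrays that stood apart 16 (median 0.10). The proteasome difference thus moved with 1 array.

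Among 31 NRF2 targets, genes of antioxidant defence, 22 were higher with pioglitazone (median -0.17; 21 with quantile normalisation). Cbr3 rose, and Gstm1, a glutathione transferase, and Fth1, ferritin heavy chain, fell, the latter in only 2 of the 11 fits that left out 1 array. Gstm1 had 8225, 8686 and 9780.1 with rosiglitazone and 13380 and 9517 with pioglitazone, against 16481, 16598 and 20159 with vehicle. Dimmer probe sets of Gstm1 and Fth1 lay on the other side of vehicle (0.47 and 0.15) and did not pass. Gstm1 fell by 0.99 with rosiglitazone (adjusted p = 0.00104, limma), while pioglitazone lay at -0.57 (adjusted p = 0.128). The difference was -0.42 (-0.75 to -0.09, adjusted p = 0.634). Tkt and Gstp1 had differences of -0.54 and -0.50 that did not pass.

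**Figure D4:**
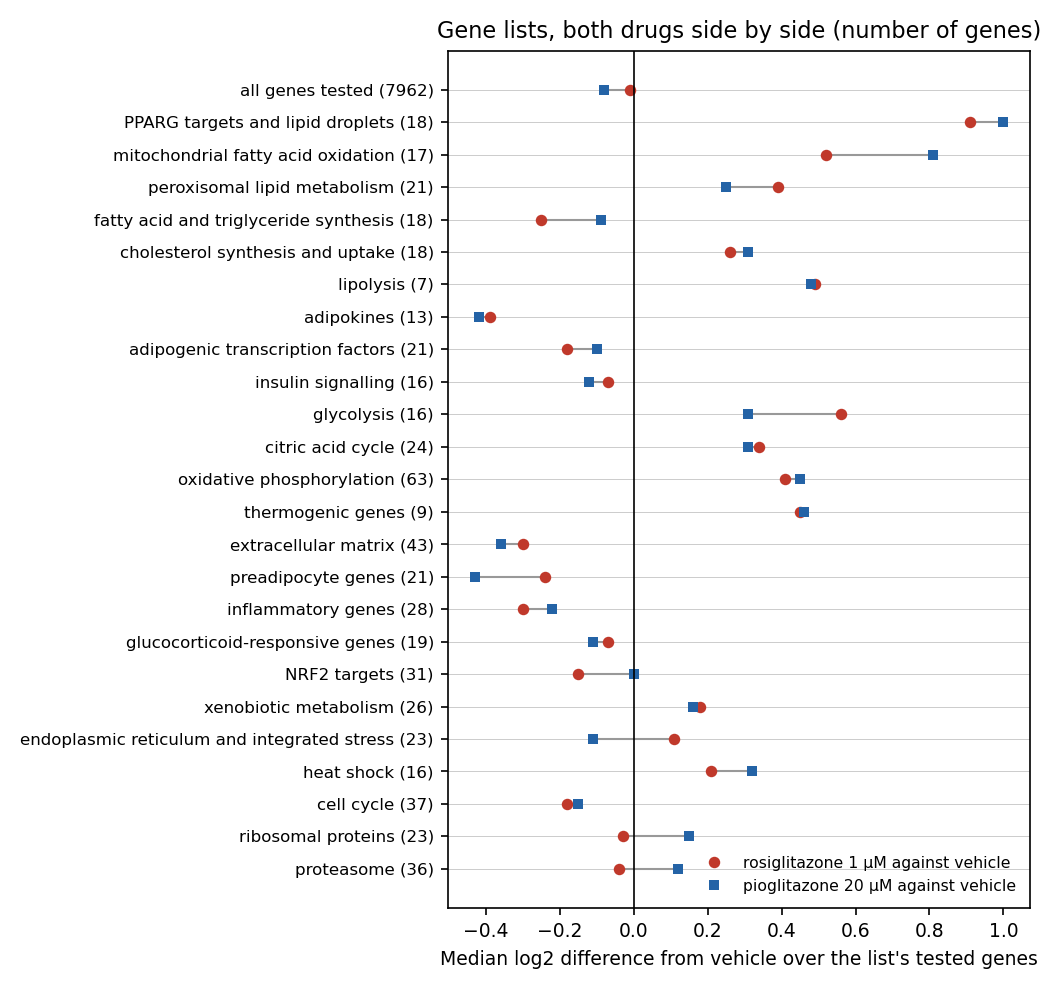
Median log2 difference from vehicle (horizontal axis) over the tested genes of each list (vertical axis, number of genes in parentheses), for rosiglitazone (red circles) and pioglitazone (blue squares), which share the vehicle arrays. The medians of the PPARγ target list (0.91 and 1.00) lie furthest to the right, and those of all 7962 tested genes (-0.01 and -0.08) lie near 0.

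Several genes that define adipocytes did not pass with the mean of the drugs. Adipoq, the adipocyte hormone adiponectin, had 42689.7, 44756 and 50833 with rosiglitazone and 37098 and 44595 with pioglitazone, against 41392, 49355 and 49893 with vehicle. All 3 groups overlapped, and the drugs differed by 0.11 (-0.21 to 0.44). Cebpa, a transcription factor that holds the adipocyte state, had 8641, 9248 and 9579 against 8122 and 8246, and a difference of 0.14 (-0.18 to 0.46). Scd1, a fatty acid desaturase, differed by 0.05 (-0.40 to 0.50), Slc2a4, the insulin-responsive glucose transporter, by -0.11 (-0.57 to 0.34), Lpl, lipoprotein lipase, by -0.17 (-0.62 to 0.28) and Fabp4, the adipocyte fatty acid binding protein, by 0.27 (-0.10 to 0.64). The intervals of these 6 genes lay inside 2-fold. Other probe sets gave differences of 0.11 and -0.30 for Scd1 and 0.36 for Lpl, so the sign differed within both genes. Lipe, the hormone-sensitive lipase, had a difference of -0.32 (-0.59 to -0.05), with signals of 12566, 12723 and 20266 against 16218 and 15673, and did not pass (adjusted p = 0.652, limma). For Lep, the hormone leptin, and Ucp1, the uncoupling protein of brown fat, the intervals were too wide to show a 2-fold likeness (-0.74 to 1.29 and -1.28 to 1.42). Rxra, another retinoid X receptor, had 1118, 1735 and 1138 with rosiglitazone and 1077 and 972 with pioglitazone, a difference of 0.34 (-0.48 to 1.15), and -0.17 by its dimmer probe set.

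The third drug of the series, troglitazone, carries a chroman ring in place of the pyridine and was given at the dose of pioglitazone. Against pioglitazone 4 probe sets passed in limma (0.0341% of those tested): 2 of Ero1a (2.31 and 1.40) and Mt2, a metallothionein (1.12), were higher with troglitazone, and Pck1 was lower (-1.96). Against rosiglitazone, at a dose 20-fold lower, 7 were higher with troglitazone (0.0596%): Mt2, Mt1, Trib3, Ddit3, Npc1 and 2 probe sets of Ero1a. Between rosiglitazone and pioglitazone the same genes had differences of -0.35 for Mt2, -0.37 for Mt1, -0.81 for Trib3, -0.40 for Ddit3, -0.16 for Npc1, and 1.08 and 0.46 for Ero1a. Pck1 had mean signals of 1655 ± 281 with troglitazone (SD, n = 3), 3669 ± 621 with rosiglitazone (n = 3) and 6467 ± 192 with pioglitazone (n = 2). Whether the pairs of drugs differ in their number of calls was not tested. The 4 against pioglitazone became 1 and 7 without pioglitazone replicates 1 and 2, 2 without rosiglitazone replicate 1 or troglitazone replicate 4, and 25 (3 higher and 22 lower with troglitazone) without both arrays that stood apart. Without the filter on dim probe sets there were also 4, but all were lower with troglitazone. None of the 4 calls named here for Ero1a, Mt2 and Pck1 was among those 25 or those 4. The 7 against rosiglitazone became 3 without any 1 of the rosiglitazone arrays or without troglitazone replicate 2, 4 without troglitazone replicate 4, 0 without both arrays that stood apart, and 4 without the filter on dim probe sets, of which 3 were among the 7.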

How the data were processed

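Total RNA of 11 samples was measured on one-colour arrays, 1 array per sample. The authors deposited 1 linear signal intensity per probe set and array, between 0.4 and 224475. These had been scaled before deposit: the mean after trimming 2% at each end was 500.289 to 500.433 on every array. Which array software was used is not given in the sources used here.

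Intensities were kept as deposited. Overlap between groups in the text was read on these signals over both sets, with no adjustment for the set. After 66 control probe sets were set aside, values under the floor of 73.7 were raised to it and log2 was taken. Probe sets above the floor on at least 2 arrays were tested (11739), and 683 were not. A linear model with a term per group and 1 for the set was fitted to all 11 arrays with limma 3.58.1 (R 4.3.3), with an intensity trend and 6 residual degrees of freedom, and was tested on simulated data. Tests were two-sided, with Benjamini-Hochberg adjustment within each of 6 contrasts; "rose", "fell" and "passed" mean an adjusted p under 0.05. Values after ± are standard errors for log2 values and standard deviations for signals, and intervals have 95% confidence.

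In the platform annotation 10833 probe sets have 1 gene, 396 have several and 1193 have none; 10817 matched the RefSeq gene table by gene ID. The files name no genome build, so only RefSeq promoters carry coordinates. A gene's brightest tested probe set stands for it (7962 genes).

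Named genes are the 5 smallest p in each direction between the drugs, the 10 largest rises and 10 largest falls of the mean of the drugs on one side of vehicle on all 5 treated arrays, no more than 3 passing members per list, and 28 adipocyte genes; other members and probe sets named were chosen after their values were seen. Members, lists and rules were chosen with earlier results of these data known. Alternatives were other scalings, floors, filters, models and sets of arrays, and leaving out each array in turn.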

Additional observations from a re-analysis of the deposited data

How the results depend on the processing

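The count of 0 probe sets between the drugs held under every alternative in limma but the one without the filter on dim probe sets (3), with unadjusted counts of 437 to 1100 and lowest adjusted p from 0.00299 to 1. That lowest p was 0.0571 with the beta-actin ratio as a covariate, 0.0663 without pioglitazone replicate 2 and 0.0771 without both arrays that stood apart, where 1 array stands for pioglitazone and its spread is taken from the other groups. The counts against vehicle (211 for the mean of the drugs, 159 for rosiglitazone, 106 for pioglitazone) fell to 57, 40 and 25 without the set term, 42, 19 and 23 in set 1 alone, 7, 6 and 6 without the intensity trend and 71, 18 and 0 with only the groups compared. For pioglitazone that 0 came with 2 against 2 arrays. Rosiglitazone gave 99 without the filter and 58 without both arrays. With 1 array left out the counts lay at 89 to 202, 74 to 158 and 43 to 111, and that between the drugs at 0. Troglitazone against pioglitazone (4) gave 1 without the set term, 0 in set 1 alone, without the trend and with only the groups compared, 25 without both arrays, and 1 to 7 with 1 array left out. Troglitazone against rosiglitazone (7) gave 4 without the filter, 0 in the same 3 settings, without the set term and without both arrays, and 3 to 6 with 1 left out.

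The share of the shared response inside 2-fold (87.2%) was 78.1% with median centring, 77.2% without the set term, 79.1% with the beta-actin ratio, 61.8% without both arrays, and 69.8% to 90.3% with 1 array left out. The share with pioglitazone further from vehicle (56.9%) was 70.6% with median centring, 71.4% without the trend, 73.3% without both arrays, and 52.6% to 68.3% with 1 left out. The probe sets inside 2-fold (3153) numbered 2081 to 3148 with 1 left out. Of the 20 genes named for the largest shared changes, 11 passed in set 1 alone, 5 without the trend, 13 with only the groups compared and 14 to 19 with 1 left out. Of 75 list members that passed, 27 did without the set term, 22 in set 1 alone, 2 without the trend, 35 with only the groups compared and 38 to 71 with 1 left out. None of the 211 probe sets called with the mean of the drugs changed sign under any alternative run, of which 209 were tested with the floor at the 50th percentile. They were chosen for clear differences from vehicle in these same arrays, so a change of sign was unlikely from the start. The cause of these changes was not tested. Some of these fits hold fewer arrays, and those without the set term or the trend hold all 11.

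Deviations of same-numbered arrays from their group means correlated at -0.0444 between rosiglitazone and pioglitazone of set 1. Each of these groups has 2 arrays in set 1, and both arrays that stood apart are among them. Whether the numbers pair the samples therefore cannot be told from this value. The replicate block gave 0 calls between the drugs and 208, 162 and 114 against vehicle for the mean, rosiglitazone and pioglitazone.

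Signal over background is the limit for dim transcripts, and 21% of tested values lay at the floor. The number of arrays limits the precision of every difference, and the pioglitazone group is the smallest and lies in set 1 only.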
